A study of Homo sapiens with 3 samples.

Results

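DAPL1, DMRT1, SOBP and NECTIN4 are 4 of the 18132 genes measured in KYSE180, a human oesophageal squamous carcinoma cell line in which the long non-coding RNA HOTAIR was either supplied or targeted. They were chosen from these arrays because the control signal lay between the signals of the HOTAIR vector cells and the HOTAIR siRNA cells. All probe sets assigned to exactly one of these symbols were taken, which gave 11 of the 49293 probe sets, namely 1 for DAPL1, 3 for DMRT1, 4 for SOBP and 3 for NECTIN4. A probe set is a group of short oligonucleotides on the array whose signals are summarised into a single value. Since the order of the arrays chose the genes, their differences are a description and were given no test.

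There were 3 arrays with 1 array per group, all of total RNA from KYSE180 cells grown in serum. In the first group, RNA was taken 48 h after Polyfect transfection with an LZRS vector carrying HOTAIR. In the second, it was taken 48 h after Lipofectamine2000 transfection with 100 pmol of a mixture of siRNAs against HOTAIR, and this sample's source name calls the cells a HOTAIR line while its title names KYSE180. The control cells are labelled only as control, and the sample's labels do not say whether they received a reagent, an empty vector or the negative-control siRNA that the series design mentions. Cell line, control state, reagent and nucleic acid therefore cannot be told apart from HOTAIR in any comparison with control. Between vector and siRNA cells, the reagent, the nucleic acid and the cell label differ as well. They cannot be told apart from HOTAIR in that comparison either.

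A vector adds a transcript while siRNAs guide its cleavage, so the 2 arms manipulate HOTAIR in opposite directions. The annotation used assigned 0 probe sets to HOTAIR, so neither arm was checked by its own target. DAPL1 encodes a small protein related to the death-associated protein DAP, and in eggs of fish and frogs this protein family sits in the exit tunnel of dormant ribosomes. DMRT1 encodes a transcription factor with a DM domain that maintains male fate in the mouse testis, SOBP encodes a zinc finger protein whose fly relative binds the eye factor Sine oculis, and NECTIN4 encodes a cell adhesion molecule of the immunoglobulin superfamily that binds afadin and serves as a receptor of measles virus. None of these genes lies on the same chromosome as another of the 4. In GRCh38.p14, DAPL1 spans chr2:158795317-158815990, DMRT1 chr9:841697-969090, SOBP chr6:107490117-107661306 and NECTIN4 chr1:161070998-161089558.

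The sequences around the annotated start sites are shown because 3 of the genes had the same order on the arrays, so that it can be seen what their start regions hold in common. Each line runs in the direction of transcription from 250 bases before to 50 bases after the start in RefSeq (GRCh38.p14), and capitals mark the motifs searched on both strands.
DAPL1 (chr2:158795067-158795366, plus strand): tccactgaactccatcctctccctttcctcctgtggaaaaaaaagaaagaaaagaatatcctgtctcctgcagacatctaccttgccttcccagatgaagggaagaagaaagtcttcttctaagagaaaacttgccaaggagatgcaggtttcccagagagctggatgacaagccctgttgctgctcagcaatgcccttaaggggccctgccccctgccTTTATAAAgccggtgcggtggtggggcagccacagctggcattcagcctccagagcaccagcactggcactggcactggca
DMRT1 (chr9:841447-841746, plus strand): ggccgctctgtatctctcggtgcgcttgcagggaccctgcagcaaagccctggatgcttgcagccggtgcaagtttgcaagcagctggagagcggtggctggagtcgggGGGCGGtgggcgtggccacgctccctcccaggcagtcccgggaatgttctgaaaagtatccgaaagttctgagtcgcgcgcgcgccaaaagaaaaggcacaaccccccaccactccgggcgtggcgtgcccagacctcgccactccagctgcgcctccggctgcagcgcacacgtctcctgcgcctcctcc
SOBP (chr6:107489867-107490166, plus strand): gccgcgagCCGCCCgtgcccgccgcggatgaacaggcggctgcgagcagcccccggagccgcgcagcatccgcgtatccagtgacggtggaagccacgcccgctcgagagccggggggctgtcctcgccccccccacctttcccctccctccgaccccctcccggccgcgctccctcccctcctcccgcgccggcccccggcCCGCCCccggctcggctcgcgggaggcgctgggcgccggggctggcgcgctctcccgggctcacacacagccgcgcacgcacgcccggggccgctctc
NECTIN4 (chr1:161089509-161089808, minus strand): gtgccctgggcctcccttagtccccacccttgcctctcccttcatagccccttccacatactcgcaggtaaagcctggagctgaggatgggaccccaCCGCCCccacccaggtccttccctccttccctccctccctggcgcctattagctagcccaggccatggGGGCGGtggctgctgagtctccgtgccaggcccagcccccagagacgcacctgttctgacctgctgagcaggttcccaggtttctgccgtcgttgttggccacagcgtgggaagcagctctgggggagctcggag

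DAPL1 was the only one of the 4 whose window held TATAAA, the TATA box, with matches on both strands that overlap each other at positions -31 and -29 relative to the start. TATAAA was present in 11.5% of 35116 RefSeq promoter windows of this length. The windows of DMRT1, SOBP and NECTIN4 held GGGCGG, the GC box, as did 45.0% of all windows. DMRT1 has a further RefSeq start at chr9:843039-843338, whose window also held a GC box. The other motifs searched were CCAAT, the DM domain core ACAATGT and the MEF3 site TCAGGTTTC of Sine oculis-type homeobox proteins, found in 34.6%, 2.30% and 0.362% of all windows and in 0 of those of the 4 genes. The windows differed in CpG content. DAPL1 had 2 CpG dinucleotides (observed over expected 0.0958, a ratio below which 9.08% of windows lay), whereas SOBP had 45 (0.963, with 88.0% of windows below it). DMRT1 had 25 (0.759) and NECTIN4 had 10 (0.318), against a median of 14 (0.579) over all windows. The 3 genes with the same order on the arrays thus had no searched motif common to all of them, and their CpG ratios differed.

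Signals are log2 values, so a difference of 1 is 2-fold. Median signals were 5.23 on the vector array, 5.25 on the siRNA array and 5.27 on the control array, and the lower quartiles were 3.58, 3.62 and 3.72 in the same order. The brightest probe set stood for each gene, and a filter at 5.28, the median of the probe set means, kept 10917 genes. Probe sets of the same gene differed in their vector minus control values with an SD of 0.36 (log2), and this spread was 0.39 in siRNA minus control and 0.21 between the arms (5982 genes). It is the sole measure of error here, it leaves out differences between cultures and arrays, and precision is limited by having 3 arrays. Of 9 squamous epithelial markers 6 were measured, and these 6 were above the filter, as were CDH1 and EPCAM. Measured markers of other cells were 4 of 5 for leukocytes, 5 of 5 for fibroblasts, 3 of 4 for melanocytes and 4 of 4 for germ cells. Of these 0 were above it, so the cells had the measured epithelial markers of their label. Germ cell genes outside this marker list, DND1, NANOS2 and NANOS3, were above the filter. Both differences from control share the control array, and an unusual value on it moves both in the same direction.

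DAPL1 had the control in the middle on its single probe set (11724085_at). Its log2 signal was 7.96 in HOTAIR vector cells, 10.41 in siRNA cells and 9.37 in control cells, all far above the lower quartiles. Vector cells were 2.66-fold lower than control (log2 -1.41), siRNA cells were 2.06-fold higher (1.05), and vector cells were 5.49-fold lower than siRNA cells (-2.46). These sizes exceed the spread between probe sets in the series, but that spread leaves out differences between cultures and arrays. DAPL1 was also chosen from these same values, so nothing is read from the excess. It has no second probe set to compare, like 6398 of the 18132 genes. In a bulk sample, fewer cells with the transcript and less of it per cell cannot be told apart, here and for the other genes.

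DMRT1 gave the same order on its brightest probe set and not on the other 2. On 11727900_at, designed on the RefSeq transcript, the log2 signal was 4.36 in vector cells, 6.99 in siRNA cells and 5.65 in control cells. Vector cells were 2.46-fold lower than control (-1.30) and siRNA cells 2.53-fold higher (1.34), so vector and siRNA cells stood 6.21-fold apart (-2.64). The vector signal lay below the filter level though above the lower quartile of its array. On 11762642_at the signals were 3.80, 3.38 and 3.90 in vector, siRNA and control cells, and on 11751838_x_at they were 2.69, 2.67 and 3.28 in the same order. Both of these probe sets were designed on other cDNAs of DMRT1, and on both the control was highest and siRNA cells lowest. The signals of 11751838_x_at were below the lower quartile on all 3 arrays, and that of 11762642_at was below it in siRNA cells. The SD between the 3 probe sets was 1.10 for siRNA minus control, against the 0.39 typical of the series.

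SOBP had the control in the middle on 3 of 4 probe sets, of which 1 was bright. On 11734893_s_at the log2 signal was 5.64 in vector cells, 7.77 in siRNA cells and 6.75 in control cells. Vector cells were 2.16-fold lower than control (-1.11), siRNA cells 2.03-fold higher (1.02), and vector cells 4.38-fold lower than siRNA cells (-2.13). Probe set 11734892_at, like it designed on an expressed sequence tag, had signals of 3.16 in vector, 4.56 in siRNA and 3.52 in control cells. There siRNA cells were again higher than control, by 1.04, while vector and control signals were both below the lower quartiles of their arrays, so their order is not read. The RefSeq-designed 11734891_at gave 3.24, 3.41 and 3.47, and 11762098_at gave 2.84, 3.03 and 2.88, in vector, siRNA and control cells. All 6 of these signals were below the lower quartiles, and no difference on either probe set was above 0.23 in size. For SOBP the higher signal of siRNA cells thus stood on 2 probe sets and the lower signal of vector cells on 1.

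NECTIN4 was in the opposite order, highest in vector cells and lowest in siRNA cells, on 2 of 3 probe sets. On 11728764_a_at, designed on the RefSeq transcript, the log2 signal was 8.95 in vector cells, 7.41 in siRNA cells and 8.20 in control cells. Vector cells were 1.69-fold higher than control (0.75), siRNA cells 1.73-fold lower (-0.79), and vector cells 2.91-fold higher than siRNA cells (1.54). On 11728765_a_at the signals were 6.07, 5.23 and 5.76 in vector, siRNA and control cells, which keeps the order with smaller differences of 0.31 and -0.53 from control. Here the vector difference is within the 0.36 spread between probe sets. On 11748451_a_at they were 4.52, 4.36 and 4.95, so that vector cells were lower than control by -0.43. On all 3 probe sets siRNA cells were lower than control, by -0.79, -0.53 and -0.59, with an SD of 0.13, and vector cells were higher than siRNA cells, by 1.54, 0.84 and 0.16.

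**Figure D1:**
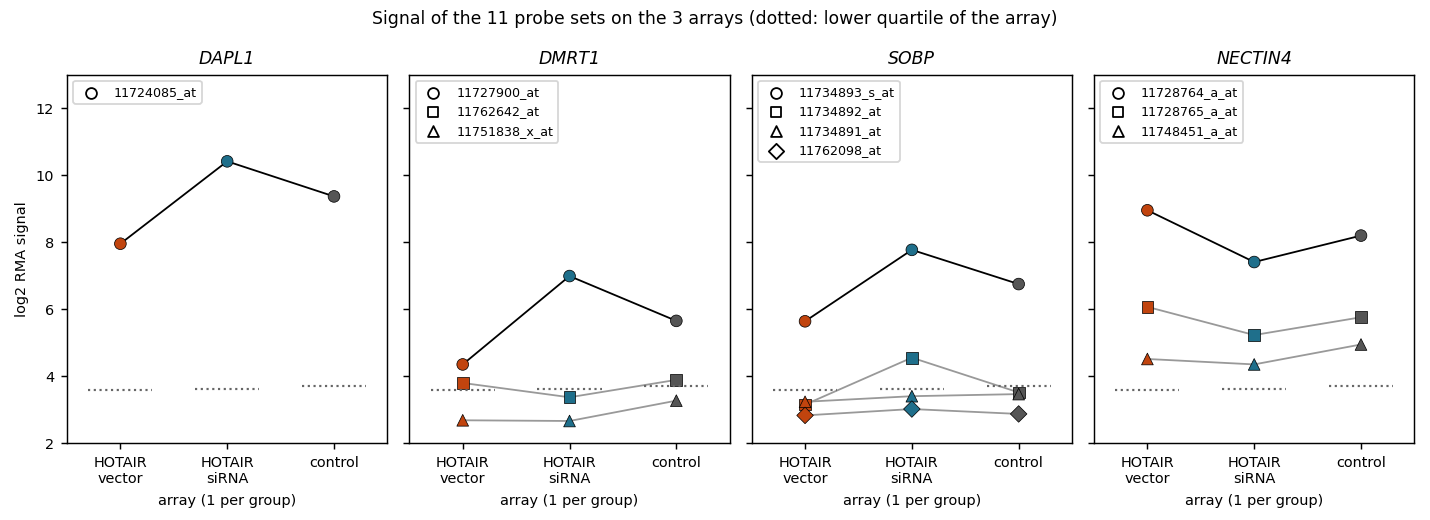
Log2 RMA signal (y axis) of the 11 probe sets of DAPL1, DMRT1, SOBP and NECTIN4 on the HOTAIR vector, HOTAIR siRNA and control arrays (x axis, 1 array each). Each symbol shape is a probe set, lines join its values (black for the brightest), and dotted marks are the lower quartile of each array. The brightest DAPL1, DMRT1 and SOBP probe sets peak in siRNA cells and that of NECTIN4 dips there, while several dimmer ones are flat or peak in control cells.

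Counted together, 7 of the 11 probe sets had the control in the middle and 4 had both arms below control. Over all probe sets of the array, whatever the size of the differences, 15.0% had the control in the middle. As the genes were chosen for this order, nothing is read from that contrast. The 5 probe sets at or above the filter all had the control in the middle, and of the 6 dimmer ones 2 did, both for SOBP. The brightest probe set of each gene is among these 5, and the genes were chosen for this order. Nothing is therefore read from the split by brightness either.

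Among genes above the filter, 619 (5.67%) had the control in the middle with siRNA cells highest, and 40 (0.366%) did so at 1.5-fold on each side. At 2-fold on each side 3 (0.0275%) were left, and these were DMRT1, DAPL1 and SOBP. Because these genes and NECTIN4 were chosen from these same arrays, nothing is read from their place in these counts or in the ranks that follow. Ordered by the smaller of the 2 differences from control, DMRT1 had rank 1 (1.30), DAPL1 rank 2 (1.05) and SOBP rank 3 (1.02). Just outside 2-fold lay SH3BGRL (-0.998 in vector and 1.47 in siRNA cells) and FLRT3 (-0.996 and 1.57), named after their values were seen. In the other direction 579 genes (5.30%) had the control in the middle with vector cells highest, 16 (0.147%) at 1.5-fold and 1 (0.00916%) at 2-fold. NECTIN4 had rank 4 of these 579 by its smaller difference (0.75), with GDF15 just ahead (1.32 and -0.77) and S100A9 just behind (3.76 and -0.74). Unlike those neighbours, NECTIN4 had differences of nearly the same size on either side of control. This was not particular to NECTIN4. Differences close in size were also found in ELF3 (0.66 in vector and -0.79 in siRNA cells), WARS1 (0.64 and -0.83) and GGT6 (0.73 and -0.63).

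The genes with the most similar pattern were taken as the 3 nearest to each gene by distance in the plane of both differences from control, over the 3 arrays. Of the nearest genes to DAPL1, FGFBP2, which encodes a growth factor binding protein, was at a distance of 0.28 (-1.20 in vector and 0.86 in siRNA cells), followed by SOBP (0.30) and DMRT1 (0.31). Those of DMRT1 were DAPL1 (0.31), SH3BGRL (0.33) and SOBP (0.37). Those of SOBP were LTBP1, which encodes a latent TGF-beta binding protein (0.16), the collagen V chain gene COL5A1 (0.17) and FGFBP2 (0.18). LTBP1 stood at -1.09 in vector and 0.86 in siRNA cells, and COL5A1 at -1.01 and 0.88.

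Nearest to NECTIN4 were ELF3, an epithelial transcription factor gene (0.092), WARS1, a tryptophanyl-tRNA synthetase gene induced by interferon (0.13), and GGT6, of the gamma-glutamyltransferase family (0.16). ELF3 had log2 signals of 9.00 in vector, 7.55 in siRNA and 8.34 in control cells, WARS1 had 9.26, 7.79 and 8.62, and GGT6 had 6.01, 4.65 and 5.28. These genes kept the order across their probe sets, with the control in the middle on 3 of 3 for ELF3, 4 of 4 for WARS1, 3 of 3 for GGT6, 5 of 5 for LTBP1 and 2 of 2 for FGFBP2. COL5A1 had it on 3 of 4 and SH3BGRL on 4 of 6. By this count DMRT1, with 1 of 3, was less even across its probe sets than its nearest genes, and so was NECTIN4, with 2 of 3. SOBP had the control in the middle on 3 of 4. On all but its brightest probe set, vector and control signals were below the lower quartiles, so its count is not compared. These comparisons are given without a test, and DAPL1 has a single probe set.

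**Figure D2:**
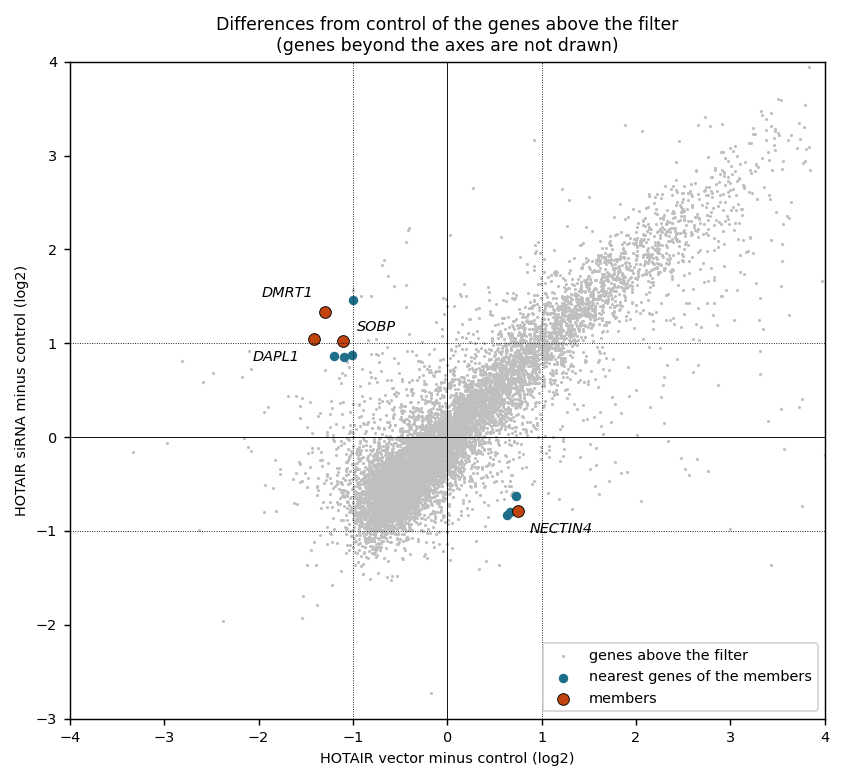
Difference from control in HOTAIR vector cells (x axis, log2) against that in HOTAIR siRNA cells (y axis, log2), 1 point per gene above the filter, with dotted lines at 2-fold. DMRT1 (-1.30, 1.34), DAPL1 (-1.41, 1.05) and SOBP (-1.11, 1.02) are the 3 genes past 2-fold at upper left, and NECTIN4 (0.75, -0.79) lies at lower right inside the 2-fold lines. Both axes share the control array, so the slope of the cloud is not read.

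Genes around each of the 4 were taken from 7 lists. With the 4 genes left out, 44 list genes were above the filter, of which 9 had the control in the middle with siRNA cells highest (5.67% of all genes kept) and 1 with vector cells highest (5.30%). Past 1.5-fold on each side there were 3 of the first kind, CDH2, KIT and DACH1 (0.366% of all genes kept), and 0 of the other (0.147%). Under another scaling, 1 or both differences of each of these 3 genes came out below 1.5-fold. In the other 6 of the 9 the siRNA signal was at most 0.23 above control. These counts describe short lists chosen with results of these arrays known, and no test was made.

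Nectins bind each other across cell contacts and are anchored to actin by afadin. Of 14 genes for nectins, nectin-like molecules and their ligands 13 were measured and 6 kept, NECTIN4 among them. None of the other 5 was 2-fold apart in any comparison (in vector cells 15.2% of all genes kept were 2-fold higher and 2.05% lower than control). On their brightest probe sets none had the control in the middle. Their median differences were -0.33 in vector and -0.25 in siRNA cells, against -0.18 and -0.17 over all genes kept. NECTIN1 had log2 signals of 11.47 in vector, 11.41 in siRNA and 11.54 in control cells, and NECTIN2 had 9.31, 9.39 and 9.64. The afadin gene AFDN had 8.58, 8.83 and 8.22, the poliovirus receptor gene PVR 6.13, 6.19 and 6.75, and the nectin-like gene CADM4 5.56, 5.65 and 6.15. The 7 probe sets of AFDN differed, with mean differences from control of 0.03 in vector and -0.01 in siRNA cells, and 3 had the control in the middle. Between vector and siRNA cells these 5 genes were at most 0.25 apart. NECTIN4 was 1.54, 0.84 and 0.16 apart on its 3 probe sets. As NECTIN4 was chosen from these same values, nothing is read from this contrast.

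NECTIN3, below the filter, had 4.55, 5.41 and 3.93 in vector, siRNA and control cells and was thus higher than control in both arms, on 2 of 2 probe sets, by 0.62 and 1.48. The nectin-like genes CADM1 (4.32, 4.36 and 4.33) and CADM3 (4.81, 4.78 and 5.03) were also dim, and all their differences were at most 0.25 in size. The lymphocyte receptor genes CRTAM, CD226, TIGIT and CD96, whose products bind nectins or nectin-like molecules, were below the filter too. The last 3 were below the lower quartile on every array, and CRTAM stood at -0.97 in vector and -0.91 in siRNA cells.

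Nectin-4 is cut from the cell surface by the proteases ADAM10 and ADAM17 and interacts with the receptor ERBB2. Of the 5 genes kept from that list, CD46, a measles virus receptor like NECTIN4, was 2-fold higher than control in both arms, as were 12.7% of all genes kept, by 1.47 in vector and 1.37 in siRNA cells (0.96 in siRNA cells for the mean over its 12 probe sets). In siRNA cells 14.9% of all genes kept were 2-fold higher and 1.85% lower than control. ADAM10 stood at 0.79 and 0.81, ADAM17 at 0.38 and 0.62, ERBB2 at -0.60 and -0.49 and ERBB3 at 0.17 and 0.15. With the mean over its 3 probe sets, ERBB3 stood at -0.12 and -0.30. No member of this list was 2-fold apart between vector and siRNA cells (1.73% of all genes kept higher, 1.85% lower), the 5 lying between -0.24 and 0.09.

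Adherens junctions join epithelial cells through cadherins and catenins, beside the nectins. Of 11 genes kept, 2 were 2-fold higher than control in both arms, against 12.7% of all genes kept. They were SSX2IP (2.74 in vector and 2.58 in siRNA cells, on 7 of 7 probe sets higher) and LMO7 (1.63 and 1.05, but 0.44 and 0.13 for the mean over its 3 probe sets). The E-cadherin gene CDH1 had 11.70 in vector, 11.87 in siRNA and 11.58 in control cells. The mean over its 2 probe sets was -0.05 from control in vector and -0.11 in siRNA cells. The N-cadherin gene CDH2 was in the order of DAPL1, DMRT1 and SOBP, with 6.40 in vector, 7.80 in siRNA and 7.16 in control cells. It was lower than control by -0.76 in vector and higher by 0.63 in siRNA cells, and the control was in the middle on 2 of 2 probe sets. Other scalings gave down to -0.56 in vector and 0.49 in siRNA cells, short of 1.5-fold. Vector minus siRNA for CDH2 was -1.40, the only such difference past 2-fold in this list (1.85% of all genes kept were 2-fold lower).

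DM domain genes encode transcription factors related to DMRT1. Of 8 such genes 7 were measured and 3 kept, DMRT1, DMRT3 and DMRTA2. DMRT3, which lies next to DMRT1 on chromosome 9, had 4.87 in vector, 6.15 in siRNA and 6.14 in control cells. It was therefore 2-fold lower than control in vector cells (-1.27), as were 2.05% of all genes kept. In siRNA cells DMRT3 was level with control (0.02), and vector minus siRNA was -1.29. With the mean over its 2 probe sets these became -0.99, -0.06 and -0.93, and vector minus control lay between -1.29 and -0.96 over the other scalings. DMRTA2 had 8.89, 8.54 and 9.20, with the control highest.

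Among the dim DM domain genes, DMRTA1, on 1 probe set, had 3.60 in vector, 5.54 in siRNA and 3.76 in control cells. The siRNA signal was above the filter level and the others lay close to the lower quartiles, so DMRTA1 was higher in siRNA cells than in either other group, and its order between vector and control is not read. DMRT2 (4.17, 4.38 and 4.62), DMRTB1 (4.10, 4.21 and 4.20) and DMRTC2 (3.80, 3.94 and 4.52) were within 0.72 of control. None of the 3 was in the order of DMRT1 beyond the spread between probe sets.

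Genes of gonad and germ cells, the tissue in which DMRT1 is best known, were mostly dim, with 8 of 24 kept. The receptor kinase gene KIT, used by germ cells and melanocytes, had 5.44 in vector, 7.24 in siRNA and 6.20 in control cells. It was thus in the order of DMRT1, with -0.76 and 1.04 from control and -1.80 between vector and siRNA cells, on 2 of 3 probe sets and with -0.38 and 0.33 for their mean. Another scaling put KIT at -0.47 in vector cells, short of 1.5-fold, and siRNA minus control was 0.95 at the lowest. The activin antagonist gene FST was lower in vector cells, with 8.38 in vector, 9.63 in siRNA and 9.74 in control cells (-1.37 from control and -1.25 from siRNA cells, lower on 3 of 3 probe sets). The germ cell genes DDX4, DAZL and SYCP3 were below the lower quartile on all arrays. Other germ cell genes were kept, each with the control highest. In vector, siRNA and control cells DND1 had 8.26, 8.20 and 8.64, NANOS2 5.02, 5.27 and 5.61, and NANOS3 5.34, 5.41 and 5.83.

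**Figure D3:**
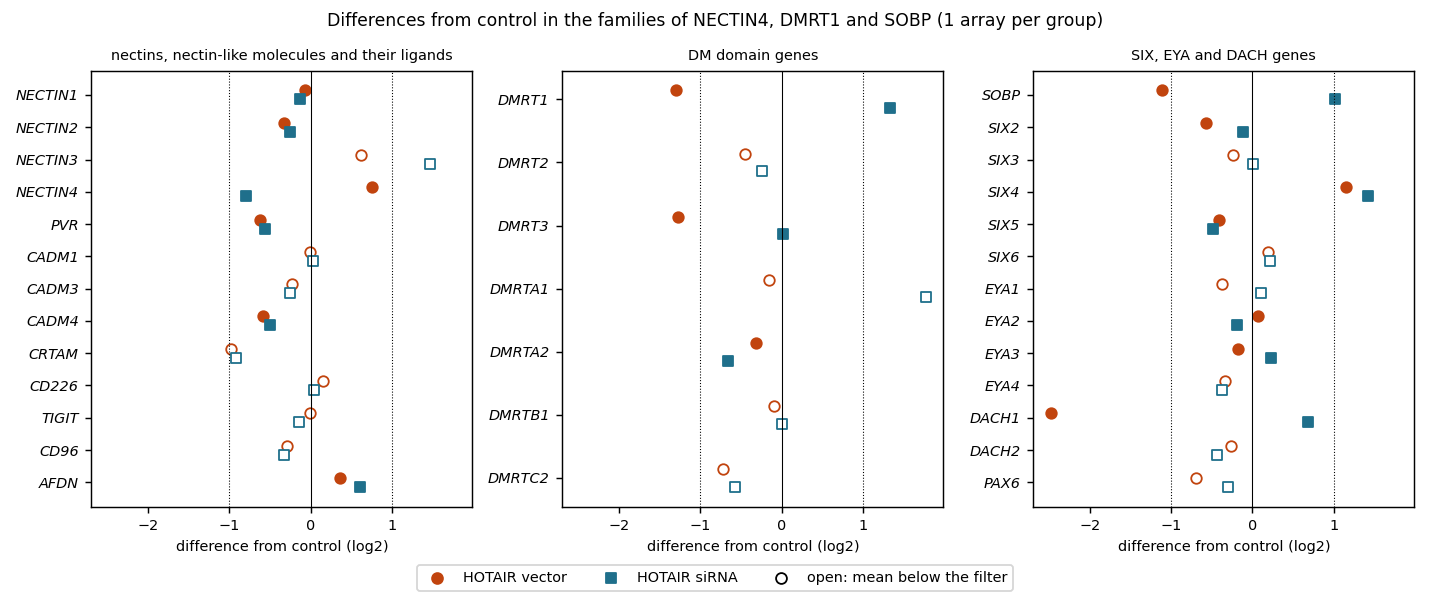
Difference from control (x axis, log2) in HOTAIR vector cells (circles) and HOTAIR siRNA cells (squares) for the measured genes of the nectin list, the DM domain list and the Sine oculis, EYA and DACH list (rows), with open symbols for genes below the filter and dotted lines at 2-fold. NECTIN4, DMRT1, SOBP and DACH1 have their symbols well apart on opposite sides of 0, DMRTA1 is higher than control in siRNA cells alone, and most other rows have both symbols on the same side or near 0.

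Homeobox genes related to Sine oculis form, with the EYA and DACH genes, the network of the fly eye factor that the SOBP relative binds. Of 7 genes kept, SOBP included, the transcription factor gene SIX4 was 2-fold higher than control in both arms, as were 12.7% of all genes kept. SIX4 stood at 1.15 in vector cells, 0.97 after one of the other scalings, and at 1.43 in siRNA cells. The corepressor gene DACH1 was lower in vector cells, with log2 signals of 4.45 in vector, 7.61 in siRNA and 6.93 in control cells. Its differences were -2.48 and 0.68 from control and -3.16 between the arms, and the control was in the middle on 2 of 2 probe sets. With the mean over probe sets the siRNA difference of DACH1 was 0.47, and under another scaling 0.55, both short of 1.5-fold. SIX2, SIX5, EYA2 and EYA3 stayed within 0.57 of control in both arms.

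Factors found with dormant ribosomes, the setting in which the DAPL1 family is known, had 7 genes kept besides DAPL1. IFRD2, which encodes a protein that inactivates ribosomes, was 2-fold lower than control in siRNA cells, as were 1.85% of all genes kept. It stood at -1.16 there, -0.99 under another scaling, and at -0.82 in vector cells. Signals of IFRD2 were 8.38 in vector, 8.03 in siRNA and 9.20 in control cells. The elongation factor gene EEF2 was level, with 13.63, 13.65 and 13.65. EIF5A stood at -0.61 in vector and -0.54 in siRNA cells, EIF5A2 at 0.32 and 0.14, HABP4 at -0.35 and 0.00, IFRD1 at 0.26 and 0.18 and CCDC124 at -0.66 and -0.76. Between the arms the 7 lay between -0.36 and 0.34, and DAPL1 stood at -2.46. As DAPL1 was chosen from these same values, nothing is read from this contrast.

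Genes adjacent to the 4 on the chromosome were looked up as the 5 RefSeq genes on each side. Of these 40 genes 13 were measured and 10 kept, many of the rest being pseudogenes or non-coding RNAs. DMRT3 was 2-fold lower than control in vector cells, as were 2.05% of all genes kept. Besides DMRT3, the gene past 2-fold was SEC63, near SOBP, which encodes a translocation factor of the endoplasmic reticulum. SEC63 was 2-fold higher than control in both arms, as were 12.7% of all genes kept. It stood at 1.01 in vector cells, 0.85 under another scaling, and at 1.26 in siRNA cells. Its signals were 9.43 in vector, 9.68 in siRNA and 8.42 in control cells. PKP4, the measured gene near DAPL1, had 8.96, 9.23 and 8.70. The 5 kept genes around NECTIN4 were within 0.76 of control, and between the arms they lay between -0.17 and 0.27.

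The 6 measured squamous epithelial markers were not all in the same order, and 0 of them had the control in the middle. KRT14, LAMB3, KRT5 and ITGB4 were highest in control and lowest in vector cells. PKP1 was highest in control and lowest in siRNA cells, and DSG3 was lowest in control cells. Their median differences from control were -0.82 in vector and -0.42 in siRNA cells, against -0.18 and -0.17 over all genes kept. In vector minus control, KRT14 stood at -1.16, LAMB3 at -0.96, KRT5 at -0.92, ITGB4 at -0.72, PKP1 at -0.34 and DSG3 at 0.67. In siRNA minus control they stood at -0.37, -0.46, -0.17, -0.46, -0.62 and 0.87 in the same order. Their part in the differences of the 4 genes was not tested.

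**Figure D4:**
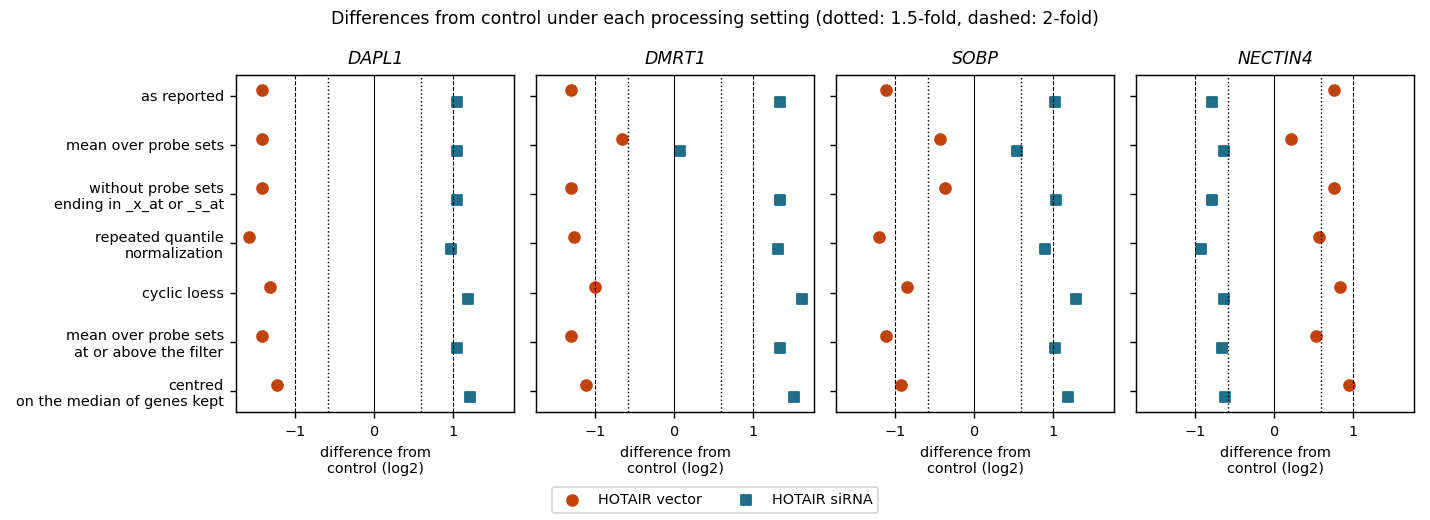
Difference from control (x axis, log2) of DAPL1, DMRT1, SOBP and NECTIN4 in HOTAIR vector cells (circles) and HOTAIR siRNA cells (squares) under each processing setting (rows), with dotted lines at 1.5-fold and dashed lines at 2-fold. The circle and the square lie on opposite sides of 0 in every row, and the gap is narrowest for DMRT1, SOBP and NECTIN4 with the mean over probe sets.

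Under 6 other ways of processing the values, single probe sets aside, the control stayed in the middle for all 4 genes, although the sizes changed. The genes were chosen for this order, and the scalings changed the values by less than the spread between probe sets. That the order was kept is therefore a description, and nothing is read from it. A setting that picks or averages probe sets returns the same value where a gene has a single eligible probe set, so only the settings that could change a value are counted. For DAPL1, with its single probe set, these were 3 scalings, of which 3 left it past 1.5-fold on both sides and 2 past 2-fold. For DMRT1 they were 4, of which 3 left it past 2-fold, the exception being the mean over its probe sets (-0.66 and 0.07). For SOBP they were 5, of which 3 left it past 1.5-fold and 0 past 2-fold. For NECTIN4 they were also 5, of which 2 left it past 1.5-fold. With the mean over probe sets, the siRNA difference of DMRT1 (0.07) was within the 0.39 spread between probe sets. The vector difference of NECTIN4 (0.21) was likewise within the 0.36 spread. Without probe sets ending in _x_at or _s_at, SOBP rested on a dim probe set whose order between vector and control is not read.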

How the data were processed

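Total RNA of 3 cultures was labelled with biotin and hybridised to oligonucleotide arrays with a 3' IVT kit, per the labels' protocols. RMA made the deposited log2 signals, per the submitters' processing notes. That the scale is log2 was read from the range of the values. The sources used here give neither the settings of RMA nor the chip definition. RMA makes arrays comparable as a whole and can compress differences near background, and its effect on the dim probe sets here was not tested.

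Gene symbols came from the platform annotation, which gave 1 symbol for 44988 of 49293 probe sets, several for 1832 and listed none for 2473. Symbols were checked through Entrez identifiers in RefSeq (44961 matched, 0 changed). The probe set with the highest mean stood for a gene, which was kept if that mean reached the median over probe sets. Differences were taken between arrays, genes past 1.5-fold or 2-fold were counted, and no test was made with 1 array per group. Named genes were the 4 genes, all measured genes of the nectin, DM domain and ribosome dormancy lists, those past 2-fold or most different in the other lists, neighbours past 2-fold and the 3 nearest patterns, and other genes named were chosen after their values were seen. The members and lists were chosen with earlier results of these data known. Promoter sequences for 4 of 4 genes came from RefSeq (GRCh38.p14), and the build behind the arrays was not needed. Protein sequences were not used here. The count of genes with the control in the middle, repeated quantile normalization and cyclic loess were run on simulated data, and the other steps were not. The differences planted for the count were larger than those of the 4 genes from control, so smaller ones were not tried.

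Alternatives were the mean over probe sets, each probe set alone, leaving out probe sets with names ending in _x_at or _s_at, repeated quantile normalization, cyclic loess (span 0.4, 3 cycles), centring on the median of genes kept, other filters and another fold. The mean over probe sets at or above the filter was added after seeing the data. Scripts ran in Python 3.11.15 with pandas 2.3.3, numpy 2.4.6, matplotlib 3.10.9 and statsmodels 0.14.6.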

Additional observations from a re-analysis of the deposited data

How the results depend on the processing

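Every value rests on 1 array per group, and dim signals limit what the fainter probe sets can show. A difference counts as moved here when it changed by more than the spread between probe sets in the series, and a count of genes when it changed by over 1.5-fold. DAPL1 has a single probe set, so only the 3 scalings could change it, and they did so by less than that spread, with a siRNA difference of 0.96 after repeated quantile normalization. Averaging all probe sets put DMRT1 at -0.66 (vector minus control), 0.070 (siRNA minus control) and -0.73 (vector minus siRNA), SOBP at -0.44, 0.53 and -0.97 in the same order, and NECTIN4 at 0.21 (vector minus control) and 0.85 (vector minus siRNA). NECTIN4 vector minus siRNA was 1.19 with the mean over probe sets at or above the filter. SOBP without probe sets ending in _x_at or _s_at, or from 11734892_at alone, was at -0.36 for vector minus control and -1.40 for vector minus siRNA.

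Single probe sets reversed several values. For DMRT1, siRNA minus control was -0.52 on 11762642_at and -0.61 on 11751838_x_at, vector minus siRNA was 0.43 and 0.021, and vector minus control kept its sign at -0.092 and -0.59. For SOBP, siRNA minus control was -0.063 on 11734891_at and 0.15 on 11762098_at, vector minus control was -0.23 and -0.044, and vector minus siRNA was -0.17 and -0.19. For NECTIN4, vector minus control was 0.31 on 11728765_a_at and -0.43 on 11748451_a_at, and vector minus siRNA was 0.84 and 0.16. The cause was not tested.

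The number of genes with the control in the middle and vector cells highest was 16 at 1.5-fold, and 1 at 2-fold, 10 with the filter at the 75th percentile, with the mean over probe sets, without the _x_at and _s_at probe sets and after centring, 9 after repeated quantile normalization and 7 after cyclic loess. With siRNA cells highest it was 40 at 1.5-fold, and 3 at 2-fold, 12 with the stricter filter and 20 with the mean over probe sets. Of 93 alternative values of the differences 64 stayed within these limits, 21 of them by construction because the same probe sets were used, as did 6 of 16 alternative counts. No paired analysis was possible because each group has 1 array.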
